A study of Homo sapiens with 12 samples.

Results

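The bone morphogenetic protein ligand BMP7, the BMP receptors BMPR1A, BMPR1B, ACVR1 and BMPR2, the signal carrier SMAD1, the inhibitory SMAD6, and the target genes ID1, ID2 and ID3 were followed across human prostate cancer cell lines. These 10 genes, of 57992 in the count table, were found by symbol. The set was chosen by pathway and selected on the measured level of BMP7, which was known to be switched on in C4-2. Comparisons of its members between C4-2 and LNCaP are therefore given as descriptions with no test. The groups were MR49F, C4-2 and LNCaP, with 3 samples each, given as biological replicates in the design text and called replicates here. MR49F is an enzalutamide-resistant derivative of LNCaP, labelled resistant to this antiandrogen. C4-2 is a castration-resistant subline of LNCaP, and both C4-2 and LNCaP were labelled sensitive. The labels give no drug exposure, culture medium or passage for any group, and each group is a single established line. Nothing in them says how the replicates were grown, so that p-values measure the spread between these libraries. A further line in the labels, C4-2R, was not analysed here.

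BMP ligands bind a complex of type I receptors, such as BMPR1A, BMPR1B and ACVR1, and type II receptors, such as BMPR2. The activated type I receptor phosphorylates SMAD1, SMAD5 or SMAD9, which enter the nucleus with SMAD4 and raise transcription of target genes. Among the best known targets are the ID genes, whose proteins lack a DNA-binding region and hold E proteins and other basic helix-loop-helix factors away from DNA. SMAD6 is also a target, and its protein inhibits the pathway. BMP7 is a ligand known from kidney and skeletal development, and in prostate cancer it has been studied in connection with bone metastasis.

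Total RNA of whole cells was made into stranded libraries and sequenced as paired ends. Total gene counts were 6990461 to 9375912 in all libraries but C4-2 replicate 1, which had 42770072. Levels are given in CPM, the share of a library's counts scaled to a common total, on TMM-scaled library sizes. A gene counted as changed at an adjusted p under 0.05, from the quasi-likelihood test of edgeR with Benjamini-Hochberg adjustment over the 15407 genes tested. All 6 markers of prostate luminal cells used here, KLK3 and KRT8 among them, had means of at least 1 CPM in each line. Of the immune markers, CD3E had no count in any line, and the summed level of PTPRC, CD3E and CD68 reached at most 0.219 CPM. Basal epithelial markers summed to at most 1.34 CPM and endothelial markers to at most 4.82 CPM in any library, with KRT5 and CDH5 at 0 counts. Neuroendocrine markers summed to 27.7 to 32.5 CPM in MR49F, 10.1 to 12.8 CPM in C4-2 and 30.9 to 34.1 CPM in LNCaP. The summed level of 4 fibroblast markers was 5.76 to 6.41 CPM in MR49F, 20.4 to 25.8 CPM in C4-2 and 25.6 to 29.3 CPM in LNCaP, with COL1A2 at 0 counts in every line. Their part in the differences below was not tested. In bulk RNA, fewer cells of a type and less RNA per cell cannot be told apart.

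The bases before the start sites of ID1, SMAD6 and BMPR2 are shown because transcripts of these genes were lower in MR49F than in both other lines. ID3 fell too, but its window lies inside the gene as GENCODE 29 draws it and is not printed. Sequences are from RefSeq on GRCh38.p14, 250 bases upstream of the annotated start, 5′ to 3′, all on the plus strand. Capitals mark matches on either strand to motifs of the kind that SMAD proteins bind. One motif was GGAGCC and another was GGCGCC, both rich in G and C. Also searched was CAGAC, and the last was the palindrome GTCTAGAC, which overlaps no other match in the windows shown. The last bases of the ID1 and SMAD6 windows lie inside the first exon of GENCODE 29. The BMPR2 window ends at 202376326, before the gene start in GENCODE 29 at 202376936, and does not reach it. The windows are chr20:31605039-31605288 for ID1, chr15:66701986-66702235 for SMAD6 and chr2:202376077-202376326 for BMPR2.
ID1: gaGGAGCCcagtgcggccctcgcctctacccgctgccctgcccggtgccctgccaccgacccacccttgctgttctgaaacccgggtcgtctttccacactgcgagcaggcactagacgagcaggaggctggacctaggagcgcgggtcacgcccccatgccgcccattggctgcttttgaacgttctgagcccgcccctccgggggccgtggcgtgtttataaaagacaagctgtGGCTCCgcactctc
SMAD6: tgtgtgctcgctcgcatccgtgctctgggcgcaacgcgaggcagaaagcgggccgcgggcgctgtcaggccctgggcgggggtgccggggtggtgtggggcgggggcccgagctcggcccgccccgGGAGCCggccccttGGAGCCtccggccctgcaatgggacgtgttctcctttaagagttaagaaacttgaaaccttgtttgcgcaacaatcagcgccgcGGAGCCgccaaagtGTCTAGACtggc
BMPR2: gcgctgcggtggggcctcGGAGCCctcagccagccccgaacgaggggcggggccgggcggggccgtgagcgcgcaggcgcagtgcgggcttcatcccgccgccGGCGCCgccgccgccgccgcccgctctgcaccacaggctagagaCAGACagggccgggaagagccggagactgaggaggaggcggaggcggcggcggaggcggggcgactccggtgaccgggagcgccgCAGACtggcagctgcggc

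GGAGCC, or its reverse complement GGCTCC, occurred 2 times before ID1, 3 times before SMAD6 and once before BMPR2, and 30.6% of all 35116 promoter windows held it. The palindrome GTCTAGAC, added to the search after the SMAD6 sequence was seen, began 12 bases before the SMAD6 start and occurs in 0.182% of windows. BMPR2 alone of these 3 genes held GGCGCC, found in 16.4% of windows, and CAGAC or its complement GTCTG, found in 38.0%. In all, 9 of the 10 members had a promoter entry, with 17 windows between them. Of the 17 windows, 10 held GGAGCC, 5 held CAGAC and 4 held GGCGCC. The SMAD1 windows starting at 145481400 and 145481603 overlap, and both hold the same GGAGCC site. These matches describe the letters only and do not show that a site is used.

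The ligand BMP7 (ENSG00000101144, GRCh38 chromosome 20, 57168748 to 57266629, minus strand) was expressed in C4-2 and all but absent elsewhere. Its counts were 2, 0 and 0 in MR49F replicates 1 to 3, 1642, 271 and 251 in C4-2, and 0 in every LNCaP library. The C4-2 libraries stood at 39.4, 34.3 and 35.9 CPM, a mean of 36.5 ± 2.63 CPM (SD, n = 3), so the deep library and the shallower ones lay close together. With the LNCaP group set to a floor of 3 counts in all, an upper limit of 0.118 CPM, the mean C4-2 level was at least 310-fold higher. From counts pooled over each line, to which C4-2 replicate 1 adds most, the ratio of C4-2 to MR49F was 502 (95% interval 139 to 4149), where intervals and floors cover counting error only. The C4-2 level of BMP7 chose the set, so this ratio is a description, and its interval leaves out the spread between replicates. MR49F and LNCaP were both at or under the floor, so no fold between them is given, and the gene passed the count filter only through C4-2. The antisense gene BMP7-AS1, which overlaps it, was listed at 0 counts in all libraries.

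**Figure D1:**
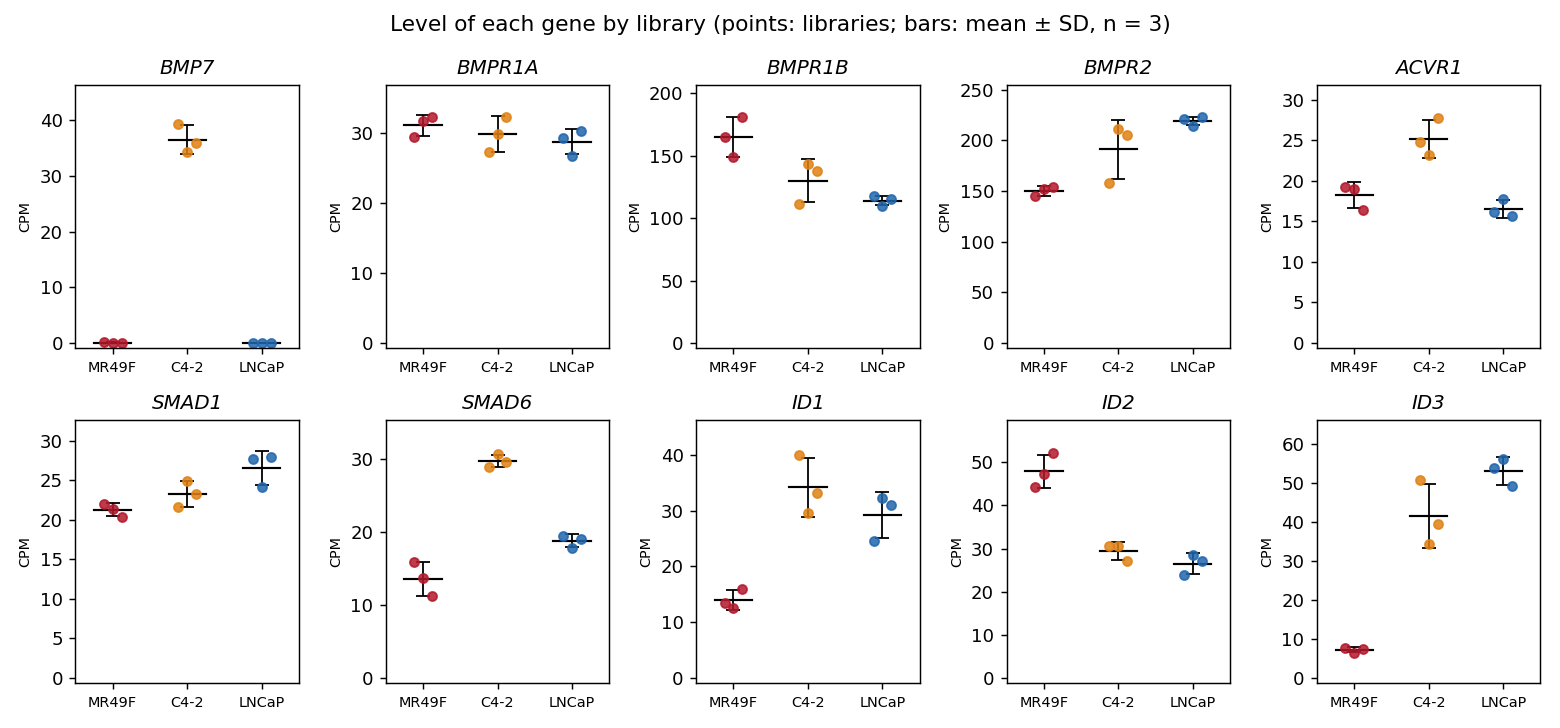
Level in CPM of the 10 genes in each library of MR49F, C4-2 and LNCaP, with each panel on its own linear axis; points are libraries, and bars give the mean ± SD of 3 replicates. BMP7 averaged 36.5 CPM in C4-2 alone, while ID3 lay at 6.41 to 7.66 CPM in MR49F and at 34.4 CPM or more in every library of C4-2 and LNCaP.

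Of 13 other BMP ligand genes, only BMP6 and BMP8B had enough counts to test. BMP6, a ligand of the same subgroup as BMP7, rose in MR49F to 9.66 ± 0.520 CPM, against 1.65 ± 0.396 CPM in LNCaP (log2 fold change 2.57, SE 0.204, edgeR adjusted p = 1.73e-09). In C4-2 it averaged 7.22 ± 0.177 CPM, also higher than in LNCaP (log2 fold change 2.16, adjusted p = 2.38e-08 by edgeR). BMP8B had another pattern. It averaged 0.917 ± 0.427 CPM in MR49F, 12 ± 0.534 CPM in C4-2 and 1.85 ± 0.175 CPM in LNCaP. Its level in C4-2 was higher than in LNCaP by 2.70 on the log2 scale (edgeR adjusted p = 6.98e-10). In MR49F it fell below LNCaP by 1.01 (adjusted p = 0.0178), a call lost without MR49F replicate 3 (log2 fold change -0.70, adjusted p = 0.115) or LNCaP replicate 2 (-0.94, adjusted p = 0.0595). BMP6 was also higher in MR49F than in C4-2 (log2 fold change 0.41, adjusted p = 0.0217), which did not pass with DESeq2 (adjusted p = 0.0808), without a count filter (0.0896), or without MR49F replicate 2 (0.0685) or 3 (0.0533).

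Among the receptors, BMPR1B and BMPR2 moved in opposite directions in MR49F, and BMPR1A differed little. BMPR1B (ENSG00000138696, chromosome 4, 94757968 to 95158448), a type I receptor, had 165, 149 and 181 CPM in MR49F, 111, 143 and 138 CPM in C4-2, and 118, 110 and 115 CPM in LNCaP. Every MR49F library lay above every library of the other lines. The gene rose against LNCaP by 0.53 on the log2 scale (SE 0.0966, edgeR adjusted p = 1.29e-04) and against C4-2 by 0.35 (SE 0.0956, adjusted p = 0.00347). BMPR2 (ENSG00000204217, chromosome 2, 202376936 to 202567751), the type II receptor, had 145, 152 and 154 CPM in MR49F, 158, 211 and 205 CPM in C4-2, and 221, 214 and 223 CPM in LNCaP. Here the MR49F libraries were the lowest, and C4-2 replicate 1 stood closer to them than to the other C4-2 libraries. BMPR2 fell against LNCaP (log2 fold change -0.54, SE 0.0939, edgeR adjusted p = 7.11e-05) and against C4-2 (-0.34, SE 0.0937, adjusted p = 0.00388). Without C4-2 replicate 1, the log2 fold changes against C4-2 were 0.24 for BMPR1B and -0.47 for BMPR2, and both passed.

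ACVR1 (ENSG00000115170, chromosome 2, 157736444 to 157875862), another type I receptor, was highest in C4-2. It had 19.3, 19.0 and 16.4 CPM in MR49F, 24.8, 23.2 and 27.8 CPM in C4-2, and 16.2, 17.7 and 15.6 CPM in LNCaP. The gene was lower in MR49F than in C4-2 (log2 fold change -0.47, SE 0.113, edgeR adjusted p = 0.00135), while MR49F and LNCaP overlapped (0.14, SE 0.121, adjusted p = 0.369). BMPR1A (ENSG00000107779, chromosome 10, 86756601 to 86932838) averaged 31.1 ± 1.5 CPM in MR49F, 29.8 ± 2.55 CPM in C4-2 and 28.7 ± 1.79 CPM in LNCaP. The ranges of all lines overlapped, with log2 fold changes of 0.12 against LNCaP (SE 0.103, edgeR adjusted p = 0.363) and 0.08 against C4-2 (SE 0.101, adjusted p = 0.504). The pseudogenes BMPR1AP1 and BMPR1AP2 had 86 and 78 counts over MR49F, 132 and 109 over C4-2, and 87 and 67 over LNCaP. How the authors' counting split reads between these copies and BMPR1A, at 816, 1596 and 727 counts over the same lines, is not known.

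The other receptors and co-receptors were divided. Of 13 listed, 8 were tested, of which 3 rose in MR49F against LNCaP (TGFBR1, TGFBR2 and NEO1) and 2 fell (TGFBR3 and RGMB). The median log2 fold change was 0.11, beside 0.01 over all tested genes, of which 24.1% rose and 22.8% fell. TGFBR2, the type II receptor for TGF-beta, averaged 3.09 ± 0.550 CPM in MR49F, against 0.780 ± 0.0837 CPM in LNCaP (a difference of 1.96 on the log2 scale, edgeR adjusted p = 2.5e-05). TGFBR1, its type I partner, rose by 0.35 (adjusted p = 0.00509), and the co-receptor gene TGFBR3 fell by 0.47 (adjusted p = 0.00841), a call lost without MR49F replicate 2 (-0.39, adjusted p = 0.0527). The activin receptor gene ACVR1B averaged 66.8 ± 2.06 CPM in MR49F and 68.1 ± 2.16 CPM in LNCaP (adjusted p = 0.815). Against C4-2, 2 of the 8 rose in MR49F, NEO1 among them (log2 fold change 0.37), and 3 fell, among them ACVR2A (-0.68, edgeR adjusted p = 5.41e-05) and ACVR1B (-0.42). The shares over all tested genes were 29.9% and 31.1%. In C4-2 against LNCaP, 4 rose and the other 4 did not pass, the rises including TGFBR2 (2.27, adjusted p = 1.14e-06), TGFBR1 (0.45) and ACVR1B (0.39). There 26.2% of all tested genes rose and 23.5% fell.

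SMAD1 and SMAD6, the carrier and the inhibitor, were both lowest in MR49F. SMAD1 (ENSG00000170365, chromosome 4, 145481194 to 145558079) had 22, 21.4 and 20.4 CPM in MR49F, 21.6, 24.9 and 23.3 CPM in C4-2, and 27.7, 24.1 and 28.0 CPM in LNCaP. It fell against LNCaP with no overlap of libraries (log2 fold change -0.32, SE 0.109, edgeR adjusted p = 0.0203). That call was lost without MR49F replicate 2 (adjusted p = 0.0515) or 3 (0.0513), and without LNCaP replicate 1 (0.0744) or 3 (0.068), with log2 fold changes of -0.32 to -0.30. Against C4-2 the libraries overlapped (-0.12, SE 0.107, adjusted p = 0.364). SMAD6 (ENSG00000137834, chromosome 15, 66702228 to 66782848) had 15.8, 13.7 and 11.2 CPM in MR49F, 28.9, 30.6 and 29.5 CPM in C4-2, and 19.4, 17.8 and 19.0 CPM in LNCaP. The libraries of the lines did not overlap, and C4-2 was the highest. SMAD6 fell against C4-2 by 1.13 on the log2 scale (SE 0.120, edgeR adjusted p = 7.90e-08) and against LNCaP by 0.47 (SE 0.128, adjusted p = 0.00494).

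All 6 other SMAD genes were tested. The shares of all tested genes that rose and fell were 24.1% and 22.8% in MR49F against LNCaP. They were 29.9% and 31.1% in MR49F against C4-2, and 26.2% and 23.5% in C4-2 against LNCaP. Against LNCaP, SMAD2, which carries TGF-beta and activin signals, rose in MR49F by 0.22 (edgeR adjusted p = 0.030), which did not hold without a count filter (adjusted p = 0.108) or on leaving out any of MR49F replicates 2 and 3 or the LNCaP libraries (0.0619 to 0.142). SMAD5, SMAD7 and SMAD9 fell, with SMAD5 close to the threshold (log2 fold change -0.25, edgeR adjusted p = 0.0448). SMAD9, a carrier of BMP signals, averaged 17.2 ± 1.37 CPM in MR49F, 28.0 ± 4.10 CPM in C4-2 and 46.6 ± 2.43 CPM in LNCaP, a log2 fold change of -1.44 for MR49F against LNCaP (SE 0.117, edgeR adjusted p = 2.31e-09). SMAD7, the other inhibitory SMAD, averaged 6.48 ± 1.56 CPM in MR49F, 10.8 ± 0.284 CPM in C4-2 and 13.1 ± 0.342 CPM in LNCaP (log2 fold change -1.02 against LNCaP, adjusted p = 2.70e-05). SMAD4, the shared partner, averaged 75.7 ± 6.39 CPM in MR49F and 77.0 ± 1.90 CPM in LNCaP (adjusted p = 0.862). Against C4-2, SMAD7 (-0.73) and SMAD9 (-0.68) fell in MR49F, and SMAD3 had a log2 fold change of 0.29 (edgeR adjusted p = 0.0417) that did not pass under most other settings (adjusted p 0.0522 to 0.183 in 12 of them). In C4-2 against LNCaP, SMAD9 (-0.77, adjusted p = 6.57e-06) and SMAD3 (-0.40) fell, though SMAD3 did not pass once LNCaP replicate 1 was dropped (adjusted p = 0.0578). The other 4 did not pass.

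In MR49F the ID genes did not move together: ID3 and ID1 fell and ID2 rose. ID3 (ENSG00000117318, chromosome 1, 23557918 to 23559794, minus strand) had 7.66, 6.41 and 7.38 CPM in MR49F, 50.6, 34.4 and 39.5 CPM in C4-2, and 53.8, 56.1 and 49.1 CPM in LNCaP. The MR49F libraries lay far below all others, whereas those of C4-2 and LNCaP overlapped. ID3 fell 7.40-fold against LNCaP (log2 fold change -2.89, SE 0.148, edgeR adjusted p = 1.35e-12) and 5.92-fold against C4-2 (-2.57, SE 0.147, adjusted p = 5.28e-12). Of all tested genes, 1.90% had a log2 fold change as low or lower against LNCaP, and 4.04% against C4-2. Without C4-2 replicate 1, the highest C4-2 library, the value against C4-2 was -2.36.

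ID1 (ENSG00000125968, chromosome 20, 31605283 to 31606515), whose upstream bases are printed above, fell to a smaller extent. Its level was 13.5, 12.5 and 16.0 CPM in MR49F, 40.0, 29.6 and 33.1 CPM in C4-2, and 24.6, 32.2 and 31.0 CPM in LNCaP. Every MR49F library was below every other library. The log2 fold change was -1.06 against LNCaP (SE 0.143, edgeR adjusted p = 3.66e-06) and -1.32 against C4-2 (SE 0.137, adjusted p = 5.82e-08), or -1.16 without C4-2 replicate 1. ID2 (ENSG00000115738, chromosome 2, 8678845 to 8684453) went the other way. It had 44.3, 47.3 and 52.1 CPM in MR49F, 30.5, 30.6 and 27.0 CPM in C4-2, and 23.9, 28.5 and 27.2 CPM in LNCaP. The MR49F libraries were the highest, and ID2 rose by 0.85 against LNCaP (SE 0.103, edgeR adjusted p = 8.87e-07) and by 0.70 against C4-2 (SE 0.0996, adjusted p = 4.44e-06). The antisense gene ID2-AS1 overlaps ID2 and had 32, 79 and 55 counts over MR49F, C4-2 and LNCaP, beside 1255, 1699 and 672 for ID2. The strand setting of the counting is not given in the sources used here.

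**Figure D2:**
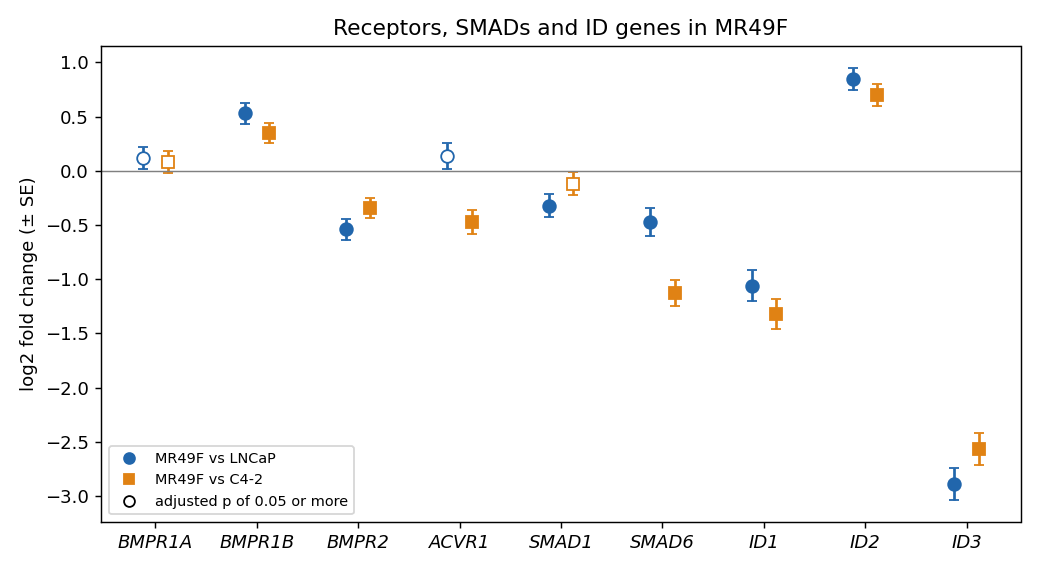
Log2 fold change of 9 genes in MR49F against LNCaP (circles) and against C4-2 (squares), with error bars of 1 SE; open symbols did not pass an adjusted p of 0.05. ID3 lies at -2.89 and -2.57 and ID2 at 0.85 and 0.70, and BMP7 is not drawn because it had 2 counts in MR49F and none in LNCaP.

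BMP7, which chose the set and passed the count filter only through C4-2, is left out of the counts that follow. Of the 9 other members, 2 rose in MR49F against LNCaP (BMPR1B and ID2), where 24.1% of all tested genes rose. Another 5 fell (BMPR2, SMAD1, SMAD6, ID1 and ID3), where 22.8% of tested genes fell, and BMPR1A and ACVR1 did not pass. In MR49F against C4-2, 2 of the 9 rose (BMPR1B and ID2) and 5 fell (BMPR2, ACVR1, SMAD6, ID1 and ID3), beside 29.9% and 31.1% of tested genes. Both comparisons use the same MR49F libraries and are not independent. Without C4-2 replicate 1, the counts against C4-2 were again 2 and 5.

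Between C4-2 and LNCaP, SMAD6 and ACVR1 had the largest log2 fold changes of the 9 members other than BMP7. SMAD6 averaged 29.7 ± 0.879 CPM in C4-2 and 18.8 ± 0.831 CPM in LNCaP, a log2 fold change of 0.66 (SE 0.116). ACVR1 averaged 25.2 ± 2.33 CPM in C4-2 and 16.5 ± 1.10 CPM in LNCaP (0.60, SE 0.115). For both genes the libraries of C4-2 lay above those of LNCaP without overlap. ID1 averaged 34.2 ± 5.29 CPM in C4-2 and 29.2 ± 4.09 CPM in LNCaP (0.26), ID2 29.4 ± 2.02 and 26.5 ± 2.36 CPM (0.16), and ID3 41.5 ± 8.25 and 53.0 ± 3.60 CPM (-0.32), again in the order C4-2, LNCaP. In these 3 genes the libraries overlapped between the lines. The log2 fold changes were 0.18 for BMPR1B, 0.04 for BMPR1A, -0.21 for BMPR2 and -0.20 for SMAD1. For BMPR2 every C4-2 library lay below every LNCaP library, while the libraries overlapped for BMPR1B, BMPR1A and SMAD1. Without C4-2 replicate 1, the lowest of these BMPR2 libraries, the BMPR2 value was -0.08. The share of all tested genes without overlap was not computed, so overlap only describes each gene here. Across all tested genes, 26.2% rose and 23.5% fell in this comparison.

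To compare genes with each other, CPM was divided by the length of all annotated exons in kilobases. On this scale ID2 made up 58.7% ± 2.11 of the summed level of ID1, ID2 and ID3 in MR49F, against 21.0% ± 2.99 in C4-2 and 18.4% ± 0.573 in LNCaP (SD, n = 3 each). ID3 made up 10.8% ± 1.13 in MR49F, 35.8% ± 2.14 in C4-2 and 45.3% ± 3.66 in LNCaP. The summed level itself was 37.0 ± 3.19 CPM per kb in MR49F, 64.2 ± 9.07 in C4-2 and 65.2 ± 4.77 in LNCaP. The order of the ID genes was therefore ID2, ID1, ID3 in MR49F and ID3, ID1, ID2 in LNCaP, in both cases with no overlap between neighbours. In C4-2, ID1 at 27.8 ± 4.29 and ID3 at 23.1 ± 4.59 CPM per kb overlapped, and ID2 lay below both at 13.3 ± 0.916.

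Among BMPR1A, BMPR1B and ACVR1, BMPR1B had the highest level per kb in each line, at 26.1 ± 2.51 CPM per kb in MR49F, 20.6 ± 2.72 in C4-2 and 18.1 ± 0.595 in LNCaP. ACVR1 followed at 4.56 ± 0.401 in MR49F, 6.33 ± 0.584 in C4-2 and 4.14 ± 0.276 in LNCaP, and BMPR1A lay at 2.73 ± 0.132, 2.61 ± 0.224 and 2.51 ± 0.157 in the same lines. The type II receptor BMPR2 was below BMPR1B in MR49F without overlap (12.6 ± 0.409 CPM per kb), while the genes overlapped in C4-2 (BMPR2 16.1 ± 2.46) and in LNCaP (18.4 ± 0.369). BMP7 in C4-2 stood at 6.75 ± 0.486 CPM per kb and overlapped ACVR1. Unused annotated exons lower such values, so they are approximate between genes. In CPM not divided by length, the mean of BMPR1A was above that of ACVR1 in each line. Their order per kb thus rests on annotated exon lengths of 11.4 kb for BMPR1A and 3.99 kb for ACVR1.

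**Figure D3:**
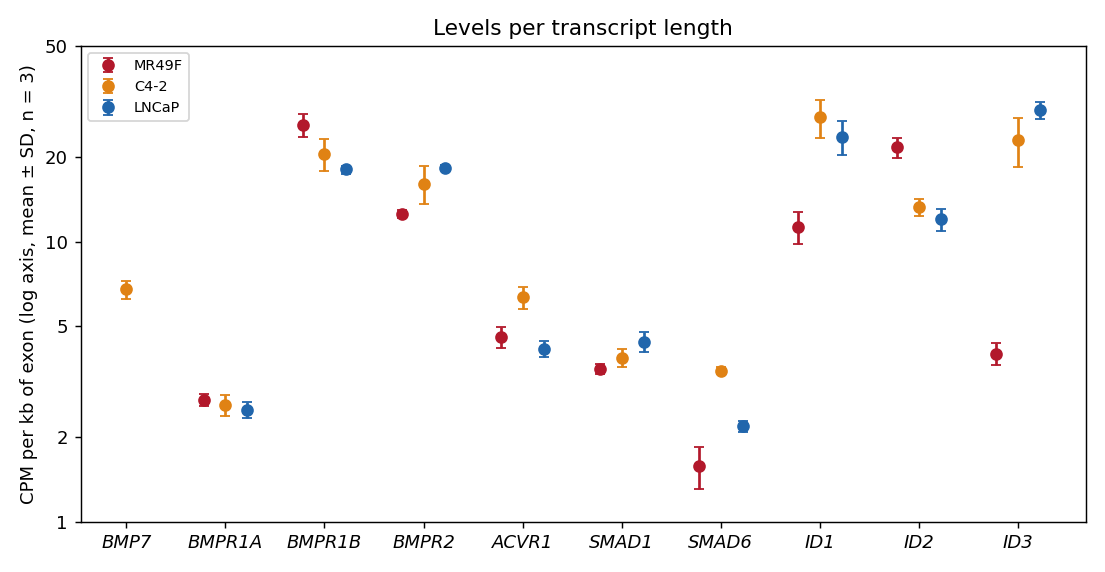
Mean level ± SD (n = 3) per kilobase of exon on a log axis, for MR49F, C4-2 and LNCaP; BMP7 is drawn only for C4-2, since it had 2 counts in MR49F and none in LNCaP. BMPR1B lies above BMPR1A and ACVR1 in every line, and ID2 is the ID gene with the highest value in MR49F at 21.7 CPM per kb.

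Other known BMP target genes were split between rises and falls in MR49F. Of 12 listed, 9 were tested, and against LNCaP 4 rose (ID4, MSX1, MSX2 and HEY1) and 4 fell (DLX3, BAMBI, SMAD7 and SMAD9), with a median log2 fold change of 0.29. Among all tested genes, 24.1% rose and 22.8% fell in that comparison. BAMBI, which encodes a pseudoreceptor that dampens BMP and TGF-beta signals, averaged 72.3 ± 1.44 CPM in MR49F, 160 ± 8.94 CPM in C4-2 and 137 ± 9.32 CPM in LNCaP. It fell by 0.92 against LNCaP (SE 0.0821, edgeR adjusted p = 1.08e-08) and by 1.15 against C4-2 (SE 0.0815, adjusted p = 1.67e-10). The osteoblast transcription factor gene RUNX2 averaged 5.87 ± 0.632 CPM in MR49F, 17.8 ± 2.49 CPM in C4-2 and 4.75 ± 0.883 CPM in LNCaP. In MR49F it fell by 1.57 against C4-2 (edgeR adjusted p = 3.64e-08), and against LNCaP it did not pass (0.29, adjusted p = 0.232). Against C4-2, 7 of the 9 fell and only MSX1 rose, with a median of -1.15 beside 0.00 over all tested genes. There 31.1% of all tested genes fell and 29.9% rose. DLX3 had no count in MR49F and 91 over C4-2, at least 14.1-fold lower in MR49F, taking the floor for its 0 counts. HEY1 averaged 2.21 ± 1.01 CPM in MR49F and 2.67 ± 0.542 CPM in C4-2 (adjusted p = 0.560).

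In C4-2 against LNCaP, 6 of these 9 target genes rose and 1 fell, beside 26.2% and 23.5% of all tested genes. Their median log2 fold change was 1.16, beside 0.00 over all tested genes. ID4, the remaining ID family gene, averaged 10.4 ± 2.46 CPM in C4-2 and 1.40 ± 0.459 CPM in LNCaP (log2 fold change 2.91, SE 0.245, edgeR adjusted p = 3.92e-09). MSX2, a homeobox gene, averaged 10.2 ± 0.893 CPM in C4-2 and 2.06 ± 0.240 CPM in LNCaP (2.25, adjusted p = 4.97e-09 by edgeR). RUNX2 rose by 1.87 (edgeR adjusted p = 9.00e-09). SMAD7 did not pass (-0.29, adjusted p = 0.103). The list shares BAMBI, SMAD7 and SMAD9 with other lists given here.

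Of 18 extracellular modulators of BMP, 6 passed the count filter and were tested, and NOG, CHRD, GREM1 and FST were among those that did not pass it. Against LNCaP, 1 rose in MR49F and 3 fell (FSTL1, TLL1 and TWSG1), beside 24.1% and 22.8% of all tested genes. FSTL1, a secreted follistatin-like protein gene, averaged 0.721 ± 0.227 CPM in MR49F, 40.7 ± 2.5 CPM in C4-2 and 31.1 ± 1.62 CPM in LNCaP. Its log2 fold change in MR49F was -5.40 against LNCaP (SE 0.188, edgeR adjusted p = 2.67e-15) and -5.79 against C4-2 (SE 0.180, adjusted p = 2.56e-16). CHRDL1, which encodes a chordin-like BMP antagonist, rose to 4.11 ± 0.372 CPM in MR49F, against 0.648 ± 0.191 CPM in C4-2 and 0.462 ± 0.205 CPM in LNCaP (log2 fold change 3.10 against LNCaP, adjusted p = 2.98e-07 by edgeR). TLL1, a protease gene of the family that cleaves chordin, had 6 counts over MR49F, none over C4-2 and 186 over LNCaP. With C4-2 set to the floor, TLL1 was at least 138-fold lower in C4-2 than in LNCaP. The same floor put MR49F 4.31-fold above C4-2, a value that leaves out the counting error of the 6 MR49F counts. The related protease gene BMP1 averaged 17.3 ± 4.61 CPM in MR49F and 15.1 ± 1.49 CPM in LNCaP (edgeR adjusted p = 0.306), and passed without MR49F replicate 3 (log2 fold change 0.39, adjusted p = 0.0269). In C4-2 it was higher than in LNCaP (0.42, edgeR adjusted p = 0.027), which did not hold on leaving out any of C4-2 replicates 1 and 3 and LNCaP replicates 1 and 2 (adjusted p 0.0517 to 0.147). FSTL1 was also higher in C4-2 than in LNCaP (0.39, adjusted p = 0.00303), and TWSG1 did not pass (-0.08, adjusted p = 0.456). Against C4-2, 2 of these 6 genes rose in MR49F and 1 fell, beside 29.9% and 31.1% of all tested genes. TWSG1 did not pass there (-0.15, adjusted p = 0.114) but did without C4-2 replicate 1 (-0.20, adjusted p = 0.0232).

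Of 19 intracellular SMAD regulators, 18 were tested, and 5 rose and 7 fell in MR49F against LNCaP, with a median of -0.06. Of all tested genes, 24.1% rose and 22.8% fell in that comparison. Besides BAMBI, CTDSPL, a phosphatase gene, fell by 0.67 (edgeR adjusted p = 8.27e-07), and TOB1, an antiproliferative gene, rose by 0.51 (adjusted p = 1.36e-05). FKBP1A, whose protein binds type I receptors, averaged 146 ± 15.8 CPM in MR49F and 130 ± 2.36 CPM in LNCaP (adjusted p = 0.107), passing only without C4-2 replicate 1 (0.17, adjusted p = 0.036) among the settings tried. Against C4-2, 3 rose and 6 fell in MR49F, beside 29.9% and 31.1% of all tested genes. NEDD4L, a ubiquitin ligase gene, was among those that fell (log2 fold change -0.64, SE 0.0736, edgeR adjusted p = 2.52e-07). SKIL, a SMAD co-repressor gene, fell by 0.99 (adjusted p = 6.40e-07), and TOB1 did not pass (0.07, adjusted p = 0.451). In C4-2 against LNCaP, 8 rose and 6 fell, beside 26.2% and 23.5% of all tested genes. NEDD4L rose by 0.85, PPM1A, a SMAD phosphatase gene, fell by 0.68, and CTDSPL fell by 0.55. FKBP1A did not pass there (0.05, adjusted p = 0.610).

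The E proteins, the main partners of ID proteins, also differed between lines. TCF4 averaged 11.7 ± 0.705 CPM in MR49F, 24.2 ± 4.76 CPM in C4-2 and 5.70 ± 1.07 CPM in LNCaP. It rose against LNCaP in MR49F (log2 fold change 1.04, SE 0.186, edgeR adjusted p = 9.88e-05) and in C4-2 (2.07, SE 0.169, adjusted p = 2.66e-09), and was lower in MR49F than in C4-2 (-1.02, adjusted p = 6.42e-06). TCF3 fell in MR49F against LNCaP by 0.37 (edgeR adjusted p = 0.00179) and averaged 52.0 ± 2.42 CPM in MR49F and 50 ± 4.63 CPM in C4-2 (adjusted p = 0.632). TCF12 averaged 66.4 ± 6.83 CPM in MR49F and 62.6 ± 0.726 CPM in LNCaP (adjusted p = 0.539). Of 5 helix-loop-helix genes tested in all, 1 rose and 2 fell in MR49F against LNCaP, beside 24.1% and 22.8% of all tested genes. TWIST1, at 1.37 ± 0.258 CPM in MR49F against 5.76 ± 0.445 CPM in LNCaP, was lower by 2.07. In C4-2 TWIST1 had 2 counts, a ratio of LNCaP to C4-2 of 163 (95% interval 44.5 to 1362) and of MR49F to C4-2 of 38.8 (9.99 to 333). HES1 was highest in C4-2, with log2 fold changes of -2.90 for MR49F against C4-2 and 2.23 for C4-2 against LNCaP. In C4-2 against LNCaP 3 of the 5 rose and 2 fell, beside 26.2% and 23.5% of all tested genes. In MR49F against C4-2 1 rose and 3 fell, beside 29.9% and 31.1%.

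In the TGF-beta and activin arm, 9 of 17 listed genes were tested. Against LNCaP, 4 rose in MR49F (GDF11, LTBP1, LTBP2 and PMEPA1) and 4 fell (INHBB, GDF15, LTBP3 and LTBP4), with a median of 0.58. Among all tested genes, 24.1% rose and 22.8% fell there. PMEPA1, which encodes an inhibitor of TGF-beta signals and is also induced by androgens, averaged 733 ± 17.8 CPM in MR49F, 224 ± 12.7 CPM in C4-2 and 111 ± 5.95 CPM in LNCaP. INHBB, an activin subunit gene, averaged 1.18 ± 0.102 CPM in MR49F, 16.5 ± 1.48 CPM in C4-2 and 6.81 ± 0.652 CPM in LNCaP (log2 fold change of -2.52 in MR49F against LNCaP and of 1.27 in C4-2 against LNCaP). GDF15 was lower in MR49F at 32.5 ± 1.99 CPM, against 114 ± 26.3 CPM in C4-2 and 117 ± 9.62 CPM in LNCaP. TGFB2 had 4 counts over MR49F, 200 over C4-2 and 2 over LNCaP, a ratio of C4-2 to LNCaP of 45.0 (95% interval 12.3 to 374). In C4-2 against LNCaP 7 of the 9 rose and the other 2 did not pass. There 26.2% of all tested genes rose and 23.5% fell. In MR49F against C4-2 1 rose and 6 fell, beside 29.9% and 31.1% of all tested genes. GDF11 was measured at 47.5 ± 2.78 CPM in MR49F and 43.4 ± 3.86 CPM in C4-2 (adjusted p = 0.195).

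**Figure D4:**
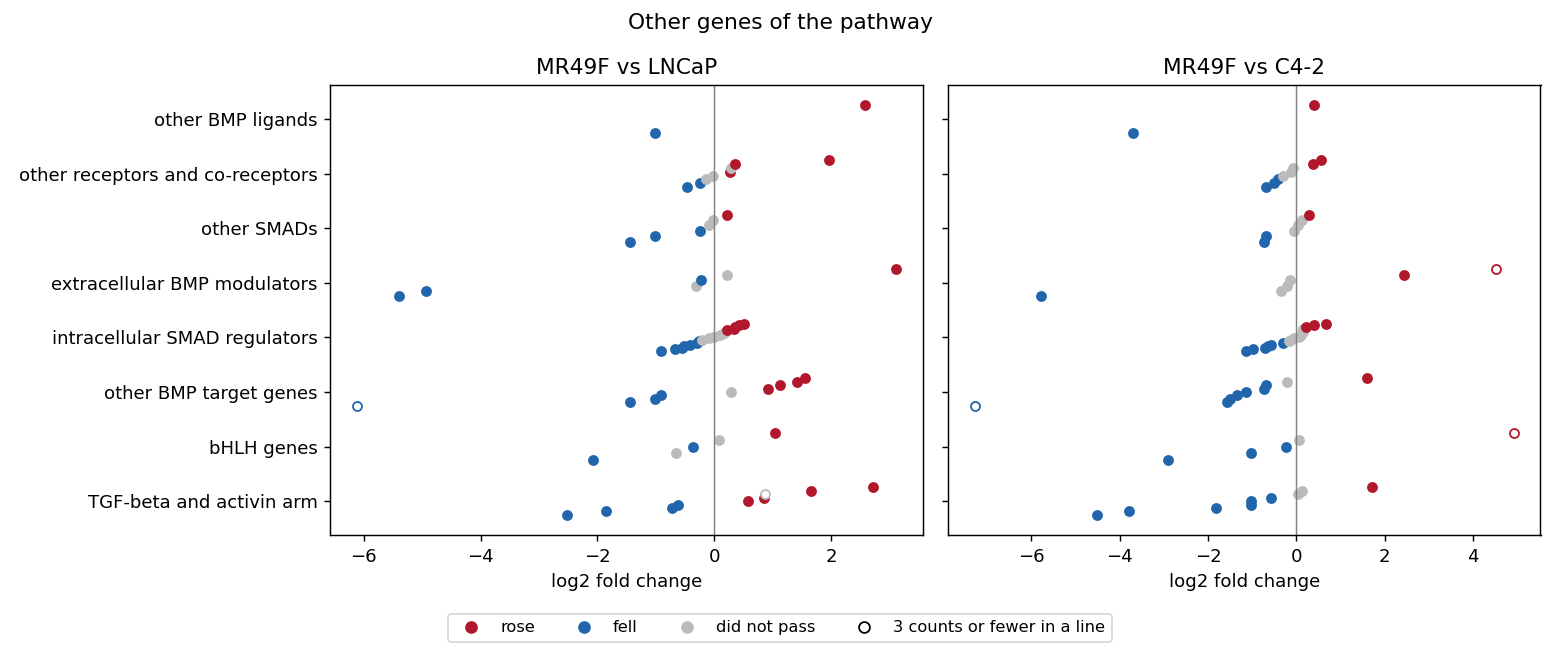
Log2 fold change of each tested gene of 8 pathway lists in MR49F against LNCaP (left) and against C4-2 (right); each point is 1 gene, red rose, blue fell and grey did not pass, and open points had 3 counts or fewer in a line, so that their position is not a bound. Of the 9 other BMP target genes, 4 rose and 4 fell against LNCaP, and 1 rose and 7 fell against C4-2. Among all tested genes, 24.1% rose and 22.8% fell against LNCaP, and 29.9% rose and 31.1% fell against C4-2.

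The genes whose profiles over the 9 libraries were nearest to that of BMP7 were CYP1B1, COCH, SLC25A43, ITPRIPL2 and DPP4. Nearness was the root mean square difference of log2 CPM, each profile centred on its own mean, and was 0.530 to 0.642 for these genes. CYP1B1 averaged 0.0396 CPM in MR49F, 26.0 ± 2.95 CPM in C4-2 and 0 in LNCaP, and DPP4 averaged 4.97 ± 0.663 CPM in MR49F, 406 ± 7.64 CPM in C4-2 and 1.81 ± 0.194 CPM in LNCaP. COCH, SLC25A43 and ITPRIPL2 averaged 17, 16.7 and 21.6 CPM in C4-2 and at most 0.0735 CPM in the other lines. At such low levels the prior count largely sets the profile. Nearness to BMP7 therefore mainly groups genes expressed in C4-2, the level for which BMP7 was chosen, and shows no shared control. With a prior count of 0.5 in place of 2, 3 of the 5 genes were again in the list. Nearest to ID1 were COL9A2, SPR, CCN1, ALG8 and BAMBI, at 0.103 to 0.138. SPR averaged 15.2 ± 1.33 CPM in MR49F, 35.8 ± 6.05 CPM in C4-2 and 29.7 ± 2.41 CPM in LNCaP. The ID1 list held the same 5 genes with the smaller prior count.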

How the data were processed

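The authors deposited whole-number counts for each Ensembl gene ID, with no normalization. Per the labels' protocols, libraries were made with a stranded TruSeq kit and sequenced on a HiSeq2500. Per the submitters' processing notes, the tools were edgeR 3.12.1, HTSeq 0.6.1, TopHat2 and FastQC 0.11.3, with no role given, and the build GRCh38.p12. The sources used here give no strand setting, annotation release or filter. Columns were matched to samples by name; 3 columns with a name that matches no sample title were not used, and the planned comparison with C4-2R was not made. Of 57992 IDs, 56948 matched a symbol and 57388 matched GENCODE 29, which gave coordinates and exon lengths.

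Counts were tested with edgeR 4.0.16 in R 4.3.3 (TMM, filterByExpr, robust quasi-likelihood fit, 1 mean per line, 6 residual degrees of freedom). The same steps were also run on data simulated from the means and spread fitted to these libraries, with results not reported here. Standard errors are the absolute log2 fold change over the square root of F. Alternatives were DESeq2 1.42.0, RLE scaling, no count filter, a minimum of 1 CPM in 3 libraries, only the 6 libraries compared, a replicate block, thinning of C4-2 replicate 1, and each library left out; CPM on plain totals and a prior count of 0.5 were tried for levels and nearness. Replicates of a line had a correlation of log2 CPM (prior count 2) of 0.987 to 0.993 across genes, which are not independent, and differed by more than counting noise (chi-square per degree of freedom 1.46 to 19.3). Members, lists and tests were chosen with earlier results of these data known. Of each list and comparison, the rule names up to 3 called genes, taken by adjusted p, and the most abundant gene that did not pass; names completing a count of 5 or fewer, and values in lines outside the named comparison, were added after their values were seen. Genes nearest to BMP7 and ID1 leave out genes of the Y chromosome. Some listed luminal markers are not reported here.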

Additional observations from a re-analysis of the deposited data

How the results depend on the processing

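The counts of changed genes stayed within 1.5 times the reported ones under all alternatives run: 2953 to 4399 rose and 3083 to 4094 fell in MR49F against LNCaP, 4083 to 4677 and 4449 to 5950 in MR49F against C4-2, and 3456 to 4670 and 3007 to 3958 in C4-2 against LNCaP. Members called were 2 up and 4 or 5 down against LNCaP, and 2 up and 5 down against C4-2. Of 288 recomputed values of the 9 members other than BMP7 in the tested comparisons, 284 kept direction and side of the threshold, and the other 4 were the SMAD1 values given above. Same-numbered replicates did not deviate together (correlations -0.0832 to 0.0562), and at most 2 of 6 libraries in a comparison correlated best with their own number. With 3 libraries per line, this cannot tell whether same-numbered libraries were prepared together. With the replicate block, 3646 genes rose and 3469 fell in MR49F against LNCaP, 4552 and 4709 in MR49F against C4-2, and 3907 and 3553 in C4-2 against LNCaP, and the member counts were 2 and 5 in both tested comparisons. Log2 fold changes of other genes that had not passed changed sign in 8 cases without 1 library: SMAD4 in MR49F against LNCaP (range -0.1 to 0.02 with each library left out, and 0.01 without MR49F replicate 2), TCF12 there (-0.01 without MR49F replicate 3, up to 0.15), SMAD5 (-0.19 to 0.05) and TCF3 (-0.02 to 0.1) in MR49F against C4-2 without C4-2 replicate 2, HEY1 there (0.01 without MR49F replicate 2, down to -0.65), and GDF15 in C4-2 against LNCaP (range -0.16 to 0.14, the upper end without C4-2 replicate 2, and 0.03 without LNCaP replicate 2). The cause was not tested. SMAD5 passed in MR49F against C4-2 without C4-2 replicate 1 and in C4-2 against LNCaP without C4-2 replicate 2 (-0.32). Depth limits the genes below 1 CPM, whose values come from few reads.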

Other observations

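The tested genes around BMP7 on chromosome 20 were also described in C4-2 and LNCaP. Within 1000000 bases of either end of BMP7, 11 other genes were tested in C4-2 against LNCaP. Of these, 4 rose and 1 fell, beside 26.2% and 23.5% of all tested genes, with a median log2 fold change of -0.01 and a range of -0.72 to 1.01. RAE1, the nearest tested gene, had a log2 fold change of -0.06 (edgeR adjusted p = 0.584). TFAP2C, which encodes a transcription factor of the AP-2 family, rose by 0.45 (adjusted p = 8.03e-04), and AURKA, a mitotic kinase gene, rose by 0.71 (adjusted p = 6.49e-07). The other rises were in PMEPA1 (1.01, adjusted p = 8.45e-10) and NKILA (0.69, adjusted p = 9.1e-04), genes that overlap each other, and FAM210B fell by 0.72 (adjusted p = 9.82e-08). These genes were looked at after the level of BMP7 was known. BMP7 was chosen for its level in C4-2, so smaller differences in its neighbours were to be foreseen. No conclusion about the cause of its level is drawn from them.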
